A study of Mus musculus with 2 samples.

Results

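The cells described here were Fabp4 preadipocyte-like fibroblasts of the mouse mammary stroma, 2418 of 39877 Pdgfra-expressing cells (hereafter Pdgfra+) and of 44871 barcodes in 2 single-cell RNA sequencing (scRNA-seq) libraries. A unique molecular identifier (UMI) tags 1 captured transcript. Of these barcodes, 44506 passed quality control, that is, held 500 or more detected genes and no more than 10% mitochondrial UMIs. Members were chosen by their own UMI counts. A cell was a member when it held at least 1 UMI of Pdgfra, at least 2 of Fabp4 and at least 1 of Cd36, Car3 or Aoc3. Cells with any UMI of the mural genes Rgs5, Notch3 or Myh11 were dropped, as were cells with at least 2 UMIs of both Pi16 and Dpp4, which mark progenitor fibroblasts. The levels of these 10 genes in the members are therefore set by the choice of cells, and are given below as a description.

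Both libraries came from female wild-type C57BL/6 mice, with no transgene and no treatment named in the labels. One library was from puberty (4 weeks of age) and the other from adult virgin mice (9 weeks). The labels give 2 females per condition and also speak of the same mouse, so how many animals each library holds is not clear, and animals cannot be told apart in it. The cells had been sorted as Lineage-negative and CD24-negative, which takes out blood, endothelial and epithelial cells. With 1 library per stage, stage and library cannot be told apart, no test across samples was possible, and the 95% intervals given below are exact and cover counting error only.

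Preadipocytes are fibroblast-like cells of the fat pad that are committed to become fat cells. The nuclear receptor PPARG drives that step together with C/EBP factors, and it acts on genes for taking up and carrying fatty acids, among them Lpl (the lipase that frees fatty acids from blood lipoproteins), Cd36 (their uptake at the cell surface) and Fabp4 (their carrier in the cytoplasm). In the mammary gland these cells lie in the adipose stroma into which the ducts grow, and stromal Fgf10, a growth factor for the epithelium, is known for its part in the budding of the gland.

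Promoter sequences were available for 3 of the 8 marker genes of the label, Cd36, Pparg and Fgf10, and are shown because these genes stand for uptake, regulation and secretion in the account below. Each covers the 250 bases before the RefSeq transcript start in GRCm38.p6, on the strand of the gene. Capitals mark matches, on either strand, to the CCAAT box (CCAAT), the TATA box (TATAAA), the nuclear receptor half-site AGGTCA or the C/EBP-type motif TTGCNNAA.
Cd36, chr5:17835897-17836146, minus strand: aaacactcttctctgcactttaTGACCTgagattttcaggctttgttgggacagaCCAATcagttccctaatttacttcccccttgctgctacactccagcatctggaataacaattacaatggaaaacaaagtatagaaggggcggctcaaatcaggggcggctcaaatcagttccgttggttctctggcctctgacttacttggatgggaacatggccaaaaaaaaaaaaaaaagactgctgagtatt
Pparg (start 3 of those listed), chr6:115421816-115422065, plus strand: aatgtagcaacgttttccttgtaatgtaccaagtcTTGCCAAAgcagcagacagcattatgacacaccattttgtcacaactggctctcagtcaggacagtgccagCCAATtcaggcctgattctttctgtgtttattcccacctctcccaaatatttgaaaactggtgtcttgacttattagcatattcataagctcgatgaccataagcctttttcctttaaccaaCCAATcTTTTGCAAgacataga
Fgf10, chr13:118714449-118714698, plus strand: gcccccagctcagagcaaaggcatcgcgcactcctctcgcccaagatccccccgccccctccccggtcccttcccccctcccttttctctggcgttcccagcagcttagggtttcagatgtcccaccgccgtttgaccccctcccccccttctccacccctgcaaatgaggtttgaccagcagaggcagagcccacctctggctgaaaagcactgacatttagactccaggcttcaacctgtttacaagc
The Cd36 window held 1 CCAAT and 1 AGGTCA, and start 3 of Pparg held 2 CCAAT and 2 TTGCNNAA. Start 1 of Pparg (chr6:115360894-115361143) held 1 AGGTCA, and start 2 (chr6:115362099-115362348) held 1 CCAAT, 1 TATAAA and 1 AGGTCA. None of the 4 motifs was in the Fgf10 window. Of 32851 promoters of the same length, 33.8% held CCAAT, 12.4% TATAAA, 14% AGGTCA and 9.56% TTGCNNAA, so that matches of these kinds were common. Fabp4, Car3, Aoc3, Lpl and Adam12 had no entry in the promoter table.

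The libraries were of similar depth, with 255274670 and 259549498 UMIs and a median of 11726 and 10781 UMIs per barcode at puberty and in the adult. They shared 145 barcodes, of which 7 pubertal and 14 adult members carried one. Members had medians of 12651 UMIs and 3595 genes per cell in the pubertal library, and of 13806 and 3911 in the adult one, against 12155 and 11068.5 UMIs in the other Pdgfra+ cells. A doublet caller marked 3.07% of pubertal and 10.5% of adult members, against 9.45% and 9.75% of the other Pdgfra+ cells. The part of doublets in the stage differences below was not tested beyond a repeat without them and the 1% of cells with most genes. In that repeat the adult over puberty ratio of member shares was 1.16 instead of 1.26. Of the genes in members, 161 were at least 2-fold higher in the adult and 145 lower, instead of 177 and 137.

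The members made up 1009 of 18878 Pdgfra+ cells at puberty (5.34%, interval 5.03 to 5.68) and 1409 of 20999 in the adult (6.71%, 6.38 to 7.06). The ratio of the 2 shares was 1.26 (1.16 to 1.36), but its direction depended on what was counted. Most of the other Pdgfra+ cells at puberty, 13244 of 17869, held at least 2 UMIs of both Pi16 and Dpp4, against 7574 of 19590 in the adult. Among the Pdgfra+ cells without such progenitors the members were 17.9% at puberty and 10.5% in the adult. The ratio was also below 1 when 2 of the 3 second genes were required (0.876) and when cells were thinned to 3000 UMIs before the rule (0.712), so no direction of the share with stage can be drawn.

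The genes that chose the members were spread unevenly over them. A member held a median of 10 Fabp4 UMIs at puberty (range 2 to 226) and 6 in the adult (2 to 262). Aoc3, which encodes an amine oxidase of the fat cell surface, was detected in 85.5% and 88.4% of members, Cd36 in 72.0% and 48.8%, and Car3, a carbonic anhydrase abundant in mature fat cells, in 22.1% and 14.2%. Summed over members and scaled to the same total of UMIs (CPM, the usual counts per 1000000), Fabp4 stood at 1292 at puberty and 699 in the adult, against 50.1 and 56.3 in the other Pdgfra+ cells, as the rule requires.

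The 4 markers of the label that the rule did not use, Lpl, Pparg, Adam12 and Fgf10, were all higher in members than in the other Pdgfra+ cells in both libraries. Lpl was at 2600 CPM in members and 609 in the others at puberty (4.27-fold, 4.22 to 4.32), and at 2628 and 802 in the adult (3.28-fold, 3.24 to 3.31). Pparg was at 191 against 22.8 CPM at puberty (8.35-fold, 7.96 to 8.76) and at 207 against 61.8 in the adult (3.34-fold, 3.23 to 3.46). Adam12, a metalloprotease known from early steps of fat and muscle cell formation, was at 925 against 86.0 CPM (10.8-fold, 10.5 to 11.0) and at 1366 against 297 (4.60-fold, 4.54 to 4.67). Fgf10 was at 258 against 41.0 CPM (6.30-fold, 6.05 to 6.55) and at 336 against 83.6 (4.02-fold, 3.91 to 4.13). The members' own levels of Lpl and Pparg were nearly the same in both libraries, and the smaller adult ratios came with higher levels in the other cells.

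The differences held without the progenitors. Against the Pdgfra+ cells without progenitors the ratios were 2.47 and 2.49 for Lpl at puberty and in the adult, 3.63 and 2.32 for Pparg, 3.18 and 2.87 for Adam12, and 3.77 and 3.86 for Fgf10. Adam12 was also high in Crabp1 cells, other Pdgfra+ cells with Crabp1 and with Stra6 or Pla2g7, at 780 CPM at puberty and 368 in the adult. Gdf10 Fmo2 cells, which carry markers of adipogenesis-regulatory fibroblasts, had Lpl at 876 and 1036 CPM and Adam12 at 72.6 and 288.

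Per cell, the members held a median of 29 Lpl UMIs at puberty (range 0 to 169) and 34 in the adult (0 to 197). For Adam12 the medians were 10 and 17, for Fgf10 2 and 3 and for Pparg 1 and 2. After thinning to 3000 UMIs, which kept 1006 pubertal and 1407 adult members, Adam12 was detected in 75.4% of pubertal and 87.9% of adult members (89.6% and 95.5% unthinned), against 9.40% and 26.5% of other Pdgfra+ cells and 0.405% and 5.23% of mural cells, which served as background and had a median of 6157 and 5164 UMIs before thinning. Fgf10 was detected in 41.4% and 46.8% of members (75.2% and 80.8% unthinned), against 9.70% and 15.6% of the other cells. None of 247 pubertal and 172 adult mural cells held it, a count of 0 that allows shares of up to 1.21% and 1.74%.

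Lpl and Pparg were also present in mural cells. Lpl was detected in 95.5% and 96.7% of members (99.4% and 99.6% unthinned), in 70.0% and 74.3% of the other Pdgfra+ cells, and in 53.4% of pubertal and 86 of 172 adult mural cells. Pparg was detected in 36.0% and 38.8% of members (74.0% and 78.6% unthinned), in 4.89% and 13.1% of the other Pdgfra+ cells, and in 39.3% and 55.2% of mural cells, so that the mural share is no background for this gene. The 4 markers outside the rule were thus higher in members in both libraries, with Pparg also a gene of mural cells. The label and its markers were chosen with earlier results of these data known. Their levels are therefore a description of the members and no independent support for the label. General fibroblast genes such as Dcn were within 2-fold between members and other Pdgfra+ cells, with 0 of 5 past it in either library.

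Beyond the markers, more genes with at least 10 CPM were lower than higher in members. With no minimum the order was the reverse at puberty, with 1040 genes higher and 768 lower. Of 8411 genes with at least 10 CPM at puberty, 366 were at least 2-fold higher in members than in other Pdgfra+ cells, a share of 4.35% that is given as background for the gene lists below, and 517 were at least 2-fold lower (6.15%). In the adult 147 of 8709 genes were higher (1.69%) and 424 lower (4.87%). Of 8196 genes measured in both, 109 were at least 2-fold higher in both libraries and 308 lower in both, and 1 went opposite ways. Against the Pdgfra+ cells without progenitors only 88 and 85 genes were higher, while 374 and 319 were lower.

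**Figure D1:**
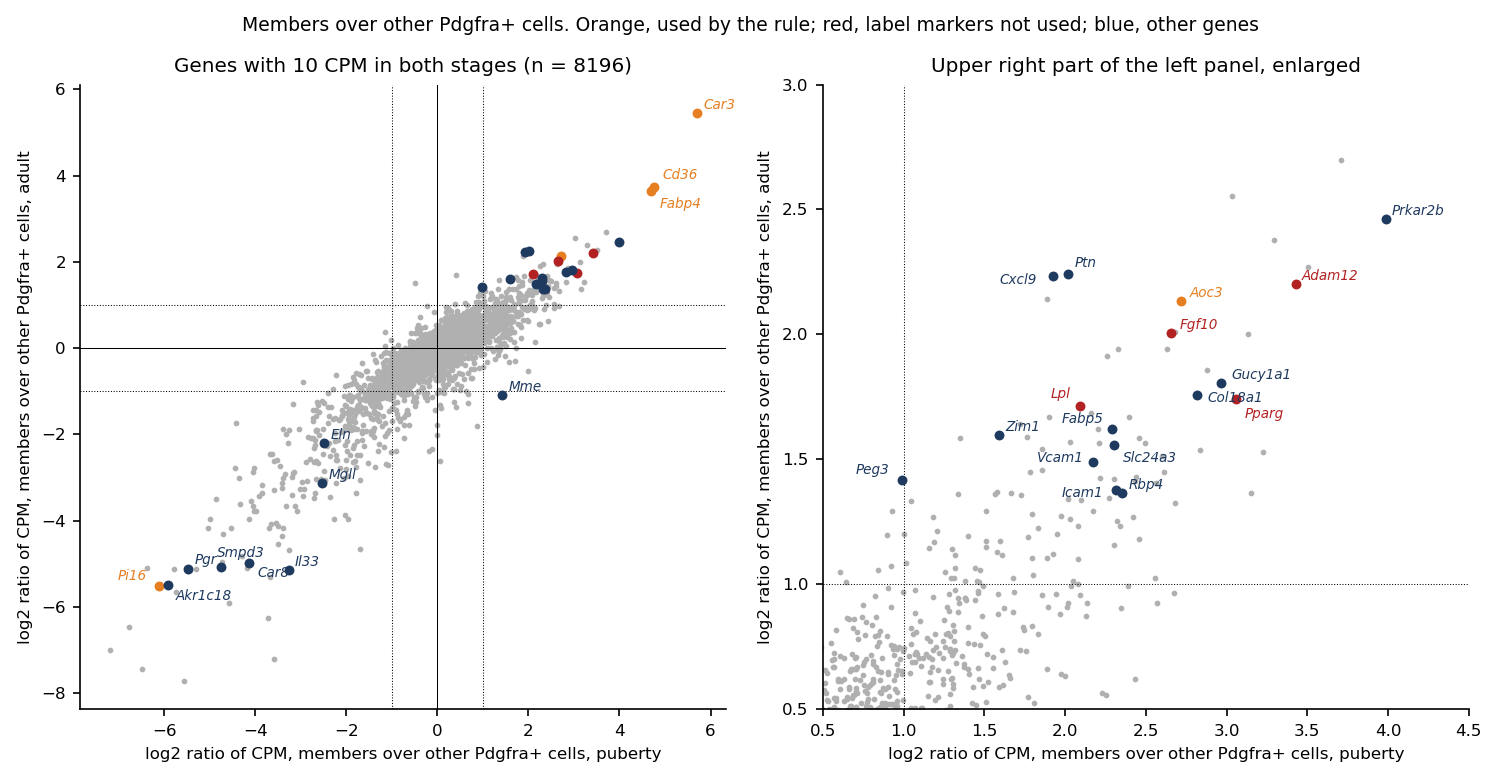
Log2 ratio of members over other Pdgfra+ cells at puberty (x axis) and in the adult (y axis) for the 8196 genes with at least 10 CPM in both libraries, with an enlarged panel of the higher genes. Label markers and the highest genes are named, and 109 genes lie at 1 or above on both axes.

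Genes for taking up and activating fatty acids were higher in part. Of 12 list genes tested at puberty, 8 were at least 2-fold higher and none lower, with a median log2 ratio of 1.46. In the adult 6 of 11 were higher (median 1.10), against medians over all genes of 0.04 and 0.00. This list holds Fabp4 and Cd36, and without them 6 of 10 and 4 of 9 genes were higher. Fabp5, the epidermal fatty acid carrier that is also found in fat, was at 36.0 against 7.37 CPM at puberty (4.89-fold) and at 22.9 against 7.43 in the adult (3.08-fold). Angptl4, a secreted inhibitor of LPL that PPAR receptors induce, was at 26.6 against 7.17 CPM (3.71-fold) and at 61.5 against 28.6 (2.15-fold). Against the cells without progenitors the counts were smaller, 2 of 10 and 2 of 9 genes besides the rule genes.

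Of 11 genes for triglyceride synthesis and lipid droplets, 5 were at least 2-fold higher in members at puberty (median 0.93, and 0.33 against the cells without progenitors). In the adult 7 were tested and none was past 2-fold (median -0.08, and 0.41 with no CPM minimum), and the difference between the libraries was not tested. Plin2, which coats small droplets, was at 125 against 39.7 CPM at puberty (3.15-fold) and at 148 against 95 in the adult (1.56-fold). Plin4, another droplet coat protein, was at 12.7 against 1.38 CPM and, below the adult minimum of 10 CPM, at 7.79 against 1.71. Mgll, which encodes the monoglyceride lipase of the last step of lipolysis, was lower in both libraries, at 20.2 against 117 CPM and 7.22 against 63.5, and its ratio to the cells without progenitors was 0.786 and 0.618. Of 8 genes for making fatty acids, 1 was higher and 1 lower at puberty and none in the adult, with medians of 0.10 and 0.01.

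Cholesterol synthesis genes, a list chosen after their values were seen, were higher as a group. All 13 genes tested were above a ratio of 1 in both libraries, 10 of them at least 2-fold at puberty (median 1.31) and 6 in the adult (median 0.84). Idi1, an isomerase of the early isoprenoid steps, was at 52.8 against 11.0 CPM at puberty (4.82-fold) and at 36.6 against 14.4 in the adult (2.54-fold). Sqle, the oxidase that commits squalene to sterols, was 4.05-fold and 2.53-fold higher, and Cyp51, a sterol demethylase, 3.41-fold and 2.28-fold higher. Against the cells without progenitors the medians were 0.89 and 0.73, with 3 genes at least 2-fold higher at puberty and none in the adult.

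Pparg stood largely alone among the transcription factors of fat cell formation. Of 13 such factors tested, 3 were at least 2-fold higher at puberty and 1 in the adult, with medians of 0.09 and 0.10. Cebpa, the partner of PPARG in late differentiation, was at 21.5 against 8.70 CPM at puberty (2.47-fold) and at 19.7 against 11.9 in the adult (1.65-fold). The liver X receptor Nr1h3 was 2.26-fold and 1.23-fold higher, and Zfp423, a factor of early commitment, was at 24.1 against 24.3 CPM and 20.3 against 21.5. Among 6 brakes on adipogenesis, Wnt10b, a Wnt ligand that holds preadipocytes back, was at 0.381 against 18.0 CPM at puberty and at 1 UMI against 10.1 CPM in the adult. Most of that difference lay in the progenitors, since the other Pdgfra+ cells without them had 1.45 and 0.287 CPM.

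Genes of the mature fat cell were low in members, and Adipoq sat in few of them. The list of 8 mature adipocyte genes summed to 23.5 CPM in members and 2.25 in the other cells at puberty, and to 13.3 and 2.34 in the adult, with Lep at 0 in the members of both libraries. Plin4 made up 12.7 and 7.79 CPM of the members' sums and was spread over 139 pubertal and 138 adult members. Without thinning, 15.7% and 11.4% of members held at least 1 of the 8 genes. Adipoq, the adiponectin gene, had 88 UMIs in 11 pubertal members and 72 UMIs in 10 adult members. A single member held 42.0% of the Adipoq UMIs at puberty and 44.4% in the adult. Car3 was less uneven, with 10.4% of its pubertal and 27.5% of its adult UMIs in a single member. Without the 10 members that held most of it, Car3 was at 102 CPM instead of 177 at puberty and at 25.04 instead of 94.0 in the adult.

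The members with at least 10 Car3 UMIs, a split chosen after values were seen, numbered 54 at puberty and 20 in the adult. Their mature adipocyte genes summed to 161 and 287 CPM, against 12.8 and 8.50 CPM in members with no Car3 UMI. Adipoq was at 98.7 and 182 CPM in them, and at 0.293 and 0.283 CPM in members with no Car3 UMI. Their Lpl was at 3935 and 3143 CPM. At least 1 of the 8 genes was detected in 33.3% and 45.0% of them, and in 13.7% and 10.6% of members without Car3.

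Surface markers of preadipocytes and stem cells were mixed. Of 11 genes for surface and stem markers besides Pdgfra, 3 were higher and 2 lower at puberty, and of 10 tested in the adult 3 were higher and none lower. Icam1, an adhesion molecule used to sort preadipocytes, was at 310 against 62.4 CPM (4.97-fold, 4.80 to 5.14) and at 351 against 135 (2.59-fold, 2.53 to 2.66). Vcam1, an adhesion molecule for white blood cells, was at 122 against 27.1 CPM (4.5-fold) and 115 against 41.1 (2.80-fold). Cd34, a stem marker of stromal cells, was at 288 against 715 CPM and 364 against 655.

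Next to all other Pdgfra+ cells, the matrix of the members leaned to basement membrane and pericellular proteins. Of 15 such genes, 6 were higher at puberty (median 0.65) and 1 in the adult (median 0.34), and none was lower. The medians were smaller next to the cells without progenitors, at 0.19 and 0.15. Col18a1, the endostatin collagen, was among the highest genes of all, at 262 against 37.2 CPM (7.04-fold) and 535 against 158 (3.38-fold), and stayed 2.54-fold and 2.15-fold above the cells without progenitors. Col4a1, a chain of the main basement membrane collagen, was at 2394 against 548 CPM (4.37-fold) and 2113 against 1154 (1.83-fold), and Col15a1 at 587 against 147 (4.00-fold) and 701 against 452 (1.55-fold). Col15a1 did not set members apart from the cells without progenitors, with ratios of 1.10 and 0.960. Interstitial collagens and elastic fibre genes went the other way, with 5 of 13 lower at puberty (median -0.60) and 2 in the adult (median -0.11). Their medians next to the cells without progenitors were -0.38 and 0.0015, so the adult list was level there. Eln, elastin, was at 102 against 569 CPM and 56.2 against 260, and the collagen Col14a1 at 401 against 1739 and 290 against 1112.

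Secreted growth factors moved singly. Ptn, pleiotrophin, a heparin-binding growth factor, was at 255 against 62.8 CPM at puberty (4.05-fold, 3.90 to 4.21) and at 460 against 97.2 in the adult (4.73-fold, 4.62 to 4.85), and stayed 2.66-fold and 3.35-fold above the cells without progenitors. Of 9 growth factors for epithelium and vessels on the list, 2 were higher and 2 lower at puberty, and 1 higher and 3 lower in the adult. Fgf10 was the one higher in both, and Hgf, a motility factor for epithelium, was at 100 against 40.4 CPM (2.48-fold) and 148 against 86.4 (1.71-fold). Fgf2 was lower, at 46.4 against 157 CPM and 34.8 against 93.6. Igf1, the local mediator of growth hormone in the gland, was at 230 against 285 CPM and 169 against 276, and at 0.495 and 0.481 times the level of the cells without progenitors. Among 3 adipokines tested, Rbp4 alone was past 2-fold in both libraries. Rbp4, the carrier of retinol, was at 57.6 against 11.3 CPM (5.12-fold) and 41.6 against 16.1 (2.58-fold).

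Chemokines that draw T cells were among the genes higher in members. Cxcl9, a chemokine induced by interferon gamma, was at 537 against 141 CPM at puberty (3.81-fold) and at 356 against 75.7 in the adult (4.70-fold). It was a gene of some members only, detected in 371 of 1009 and in 445 of 1409. After thinning it was found in 30.2% and 21.9% of members, 11.7% and 5.79% of the other Pdgfra+ cells and 1.21% and 1.16% of mural cells. Ccl19, a ligand of CCR7, was at 56.3 against 11.1 CPM (5.06-fold) and 61.0 against 26.0 (2.35-fold). Of 15 chemokines and cytokines, 4 were higher and 1 lower at puberty (median 0.64), and 3 higher and 2 lower in the adult (median 0.23). The lower one in both was Il33, an alarmin, at 9.44 against 90.6 CPM and 1.73 against 61.1.

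Other genes that respond to interferon gamma, a list chosen after values were seen, were higher with Cxcl9. All 14 genes tested were above a ratio of 1 in both libraries, 6 of them at least 2-fold at puberty (median 0.94) and 5 in the adult (median 0.57). Against the cells without progenitors the pubertal median was smaller, at 0.59, while the adult median lay between 0.50 and 0.92 in all alternatives. Irf1, a transcription factor of that response, was at 1113 against 369 CPM (3.02-fold) and 671 against 298 (2.25-fold). Nlrc5, an activator of class I antigen presentation genes, was 2.85-fold and 2.45-fold higher, and the immunity-related GTPase Iigp1 2.71-fold and 2.09-fold. Of the broader interferon-stimulated genes, 3 of 11 at puberty and 1 of 12 in the adult were higher (medians 0.18 and 0.21). Immune cell markers were at or near 0 in the members: they summed to 1.45 and 1.40 CPM, and Ptprc, which all white blood cells express, was at 0 in both libraries.

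Both subunits of the receptor for nitric oxide were higher in members. Gucy1a1, a subunit of that receptor, soluble guanylate cyclase, was at 131 against 16.7 CPM at puberty (7.81-fold) and 113 against 32.3 in the adult (3.49-fold), and its partner Gucy1b1 at 65.9 against 10.7 (6.13-fold) and 78.6 against 28.8 (2.73-fold). Prkar2b, a regulatory subunit of protein kinase A that is abundant in fat, was at 64.8 against 4.09 CPM (15.8-fold) and 46.1 against 8.37 (5.51-fold), and stayed 5.18-fold and 3.77-fold above the cells without progenitors. Prkg1, the kinase downstream of cyclic GMP, was lower, with ratios of 0.323 and 0.347. On this list of nitric oxide and cyclic nucleotide genes, also chosen after values were seen, 6 of 13 were higher and 2 lower at puberty, and 3 higher and 2 lower in the adult. Slc24a3, a potassium-dependent sodium and calcium exchanger, was at 359 against 72.6 CPM (4.94-fold) and 192 against 65.2 (2.94-fold).

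A few imprinted genes were higher in members without the rest of their group. Zim1 was at 65.8 against 21.8 CPM at puberty and at 76.0 against 25.1 in the adult, 3.02-fold in each. H19, a noncoding RNA of the fetal and early postnatal body, was at 153 against 60.04 CPM (2.55-fold) and 67.0 against 22.4 (3.0-fold), and was detected in 285 of 1009 and 240 of 1409 members. Peg3 was at 552 against 278 CPM (1.98-fold) and 542 against 203 (2.67-fold). At puberty Zim1 and Peg3 were level with the cells without progenitors, at ratios of 1.02 and 1.01, while in the adult they were 2.15-fold and 2.03-fold above them. Grb10 was lower in both libraries (0.362 and 0.433), and over this list, chosen after values were seen, 2 of 12 genes were higher and 2 lower at puberty and 3 higher and 1 lower in the adult.

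**Figure D2:**
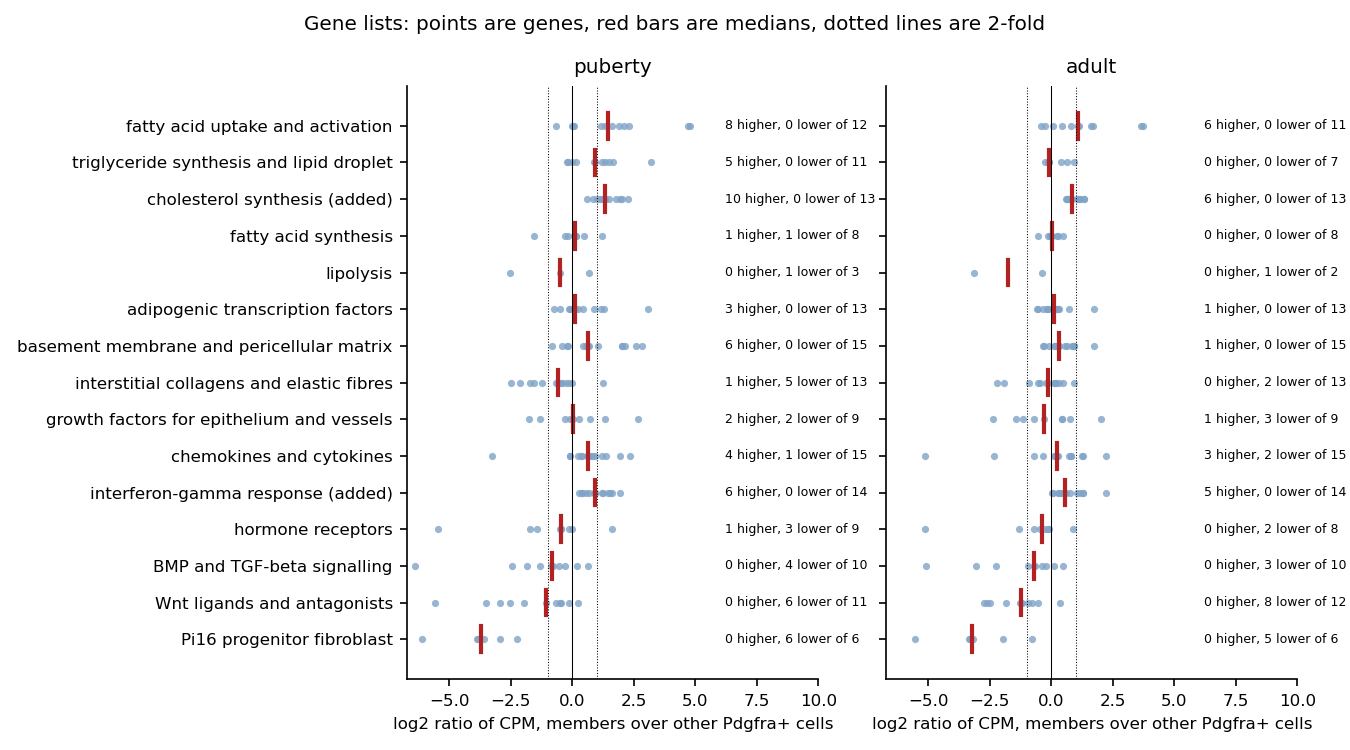
Log2 ratio of members over other Pdgfra+ cells for the genes of 15 lists at puberty and in the adult, with the counts past 2-fold. Points are genes and bars medians. By median, the lists for fatty acid uptake and cholesterol synthesis lie highest. Progenitor markers lie lowest, followed by Wnt ligands and antagonists at puberty and by lipolysis in the adult. The fatty acid list holds Fabp4 and Cd36 and the progenitor list Pi16 and Dpp4, which the rule used. Without Fabp4 and Cd36 the fatty acid medians are 1.23 and 0.81, next to 1.31 and 0.84 for cholesterol synthesis.

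The genes lowest in members were those of the progenitor fibroblasts. Besides Pi16 and Dpp4, which the rule used, all 4 other progenitor markers were lower at puberty and 3 of 4 in the adult. The rule dropped Pi16 Dpp4 cells from the members and left them among the others, so lower progenitor markers were built in. When members were compared with the cells without progenitors, 1 of the 4 was lower at puberty and 0 in the adult (medians -0.76 and -0.24). Aldh1a3, which makes retinoic acid, was at 2.44 against 130 CPM (ratio 0.0187) and 1.11 against 55.7 (0.0199). Akr1c18, a progesterone-inactivating reductase, was at 6.62 against 402 CPM (0.0165) and 2.45 against 111 (0.0221), and Smpd3, a sphingomyelinase, at 6.70 against 181 (0.0370) and 4.67 against 158 (0.0296). Car8, a carbonic anhydrase relative without enzyme activity, was at 17.8 against 311 CPM and 4.91 against 154. Since progenitors were most of the comparison cells at puberty, much of these differences was theirs: against the cells without progenitors the 10 lowest genes had ratios of 0.145 to 0.567 at puberty. In the adult their log2 ratios to those cells ran from -1.98 for Pi16 to -0.51 for Akr1c18. Aldh1a3 was at -0.57, so that it and Akr1c18 were less than 2-fold lower there.

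Several Wnt and BMP genes were lower in members and none was past 2-fold higher. Of 11 Wnt ligands and antagonists tested at puberty 6 were lower and none higher (median -1.09), and of 12 in the adult 8 were lower (median -1.24). The secreted antagonist Sfrp4 was at 28.7 against 330 CPM (ratio 0.0869) and 31 against 187 (0.166), and Sfrp2 at 98.4 against 569 (0.173) and 172 against 404 (0.426). Of 10 genes of BMP and TGF-beta signalling 4 were lower at puberty (median -0.82) and 3 in the adult (median -0.68). Against the cells without progenitors these medians were nearer to 0, at -0.59 and -0.35. Bmp7, known for brown fat formation, was at 0.381 against 31.8 CPM and 0.577 against 19.8. An exception lay in Rspo3, an enhancer of Wnt signals, which was at 10.9 and 12.2 CPM in members, 4.92-fold and 3.06-fold above the cells without progenitors, but level with all others (1.16 and 1.26).

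Hormone receptors were mostly lower or level. Pgr, the progesterone receptor, was at 0.914 against 40.6 CPM at puberty and 0.433 against 15 in the adult. Esr1, the estrogen receptor, was at 262 against 366 CPM and 122 against 196, and above the cells without progenitors at puberty (1.33-fold). Prlr, the prolactin receptor, was the one higher receptor, at 81.3 against 26.4 CPM (3.08-fold) and 21.2 against 11.3 (1.87-fold), but not against the cells without progenitors (0.938 and 1.25). Over the list 1 of 9 was higher and 3 lower at puberty (median -0.47), and 2 of 8 were lower in the adult (median -0.36). Of 9 retinoid genes 4 were lower and 1 higher at puberty, and of 11 in the adult 5 were lower and 1 higher, with Aldh1a1 at 29.3 against 105 CPM and 49.4 against 149.

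Complement genes were level or lower, with 1 of 9 lower at puberty and 2 in the adult and none higher. The medians were -0.07 and -0.15, and lower against the cells without progenitors, at -0.73 and -0.40. C3, the central complement protein, was at 798 against 1477 CPM (ratio 0.540) and 448 against 1649 (0.271).

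Summed levels of markers of other cell types were low in members. Endothelial genes summed to 41.7 CPM in members and 46.6 in the others at puberty and to 31.9 and 24.1 in the adult. Most of the pubertal sum was Pecam1 (38.7 CPM), and Cldn5 was at 0. In the adult Flt1 stood at 10.1 against 1.75 CPM, with 210 UMIs in 19 members and 86.7% of them in 10 members. Cells with at least 2 endothelial genes after thinning were 8 of 1407 adult members (0.569%). The shares were 0.104% of the other adult Pdgfra+ cells and 0.0516% of those without progenitors. At puberty 0 of 1006 members held 2 such genes, against 0.279% of the other Pdgfra+ cells. Epithelial genes summed to 0.152 and 0.0962 CPM, Schwann cell genes to 10.1 and 6.11 and skeletal muscle genes to 1.29 and 0.241, all below the other Pdgfra+ cells. Mural genes summed to 61.5 CPM in members and 162 in the others at puberty and to 54.7 and 112 in the adult, with the 3 rule genes at 0 by choice and Abcc9 making up 50.7 and 43.3 CPM.

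Several genes high in members were also genes of mural cells, which held Fabp4 at 3334 and 3095 CPM, Gucy1a1 at 1163 and 1506, Gucy1b1 at 492 and 673 and Pparg at 309 and 432. Mural genes that the rule did not use differed in members. Abcc9 made up most of the members' mural sum, as given above, while Acta2 and Mcam were far below their level in mural cells. Acta2, smooth muscle actin, was at 5.18 and 4.47 CPM in members and at 6223 and 4042 in mural cells, and Mcam, an adhesion molecule of pericytes, at 0.457 and 0.625 and at 252 and 261. Adam12 and Fgf10 were low in mural cells, at 3.06 and 29.5 CPM and at 0 and 0.842 CPM. The part of these cell types in the differences above was not tested beyond the values given, and leaving out members with an endothelial or immune UMI left 364 genes higher and 529 lower at puberty and 145 and 434 in the adult.

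Within the members, some genes outside the rule were higher in cells with more Fabp4, Lpl among them. The genes given here were chosen after values were seen. The members were divided by their Fabp4 UMIs into bins of 2 to 3, 4 to 7, 8 to 15, 16 to 31 and at least 32, with 203, 214, 216, 217 and 159 cells at puberty and 413, 389, 347, 187 and 73 in the adult. Lpl stood at 1602, 2173, 2674, 3134 and 3480 CPM from the lowest bin to the highest at puberty, and at 1992, 2509, 2794, 3317 and 3646 in the adult. Fabp5 was at 21.1 CPM in the lowest and 82.7 in the highest bin at puberty and at 14.5 and 59.6 in the adult, Idi1 at 29.3 and 108 and at 19.5 and 106, and Slc24a3 at 181 and 543 and at 110 and 403. Each of these was more than 2-fold apart between the end bins in both libraries except Lpl in the adult. Other lipid genes did not follow the bins in the adult, such as Plin2, at 137, 145, 162, 142 and 160 CPM, and Rbp4, at 43.6, 40.9, 38.3, 39.7 and 53.4. At puberty both were higher in the highest than in the lowest bin, Plin2 at 155 against 75.7 CPM and Rbp4 at 91.8 against 34.8. Pparg and Fgf10 were highest in the bin of 16 to 31 UMIs in the adult, at 267 and 472 CPM, with 231 and 299 in the top bin. At puberty they were highest in the top bin, at 275 and 364 CPM, with 125 and 129 in the lowest. The median depth of the bins differed too, at 12184 UMIs in the lowest and 13324 in the highest bin at puberty and at 12513 and 16630 in the adult. The doublet caller marked 4.93% of the lowest and 4.40% of the highest bin at puberty, and 14.3% and 6.85% in the adult. The part of depth and of doublets was not tested.

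**Figure D3:**
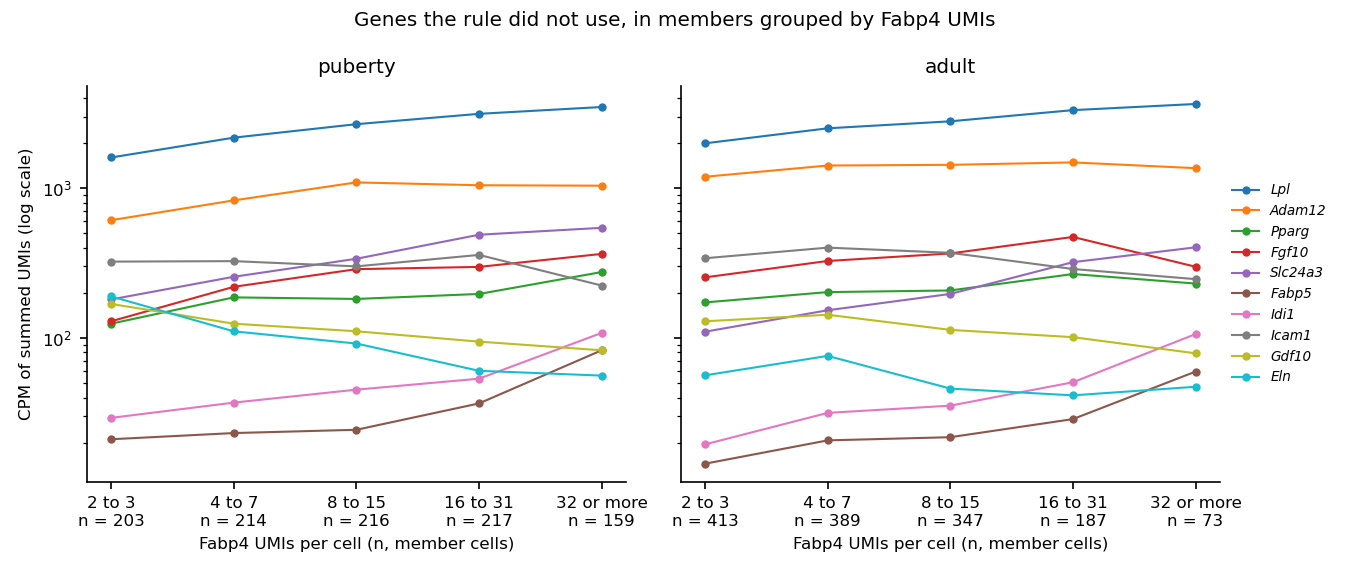
Level (CPM, log axis) of Lpl and other genes not used by the rule in members binned by their Fabp4 UMIs, for each library. Lpl is higher in each bin than in the bin below it in both libraries.

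Further genes were level or lower in the bins with more Fabp4. Dcn, the proteoglycan decorin, was at 9299 CPM in the lowest and 8149 in the highest bin at puberty and at 12179 and 9382 in the adult. Peg3 was at 538 and 570 CPM and at 514 and 591, and Icam1 at 323 and 224 and at 340 and 247. Gdf10, a marker of adipogenesis-regulatory fibroblasts, was at 169 and 82.7 CPM at puberty and 129 and 79.0 in the adult.

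The second genes of the rule split the members in the same direction in part. Members with Aoc3 alone were 24.9% of all at puberty and 45.6% in the adult, and had Lpl at 1778 and 2250 CPM. Members with all 3 second genes were 16.5% and 7.24%, and had Lpl at 3657 and 3892 CPM. With Cd36 alone Lpl was at 2370 CPM at puberty and 2167 in the adult. That adult Lpl was below the level with Aoc3 alone although Fabp4 was higher, at 1018 against 503 CPM. Adult members with all 3 genes were also deeper than those with Aoc3 alone, at medians of 15687.5 and 13202.5 UMIs, and the part of depth was not tested.

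The edge of the rule was not a gap. The 116 pubertal and 242 adult members with exactly 2 Fabp4 UMIs had Lpl at 1690 and 1845 CPM. Just outside, the 239 and 419 cells with 1 Fabp4 UMI and a second gene had Lpl at 1361 and 1429 CPM, and the 163 and 480 cells with enough Fabp4 but no second gene at 1337 and 1457. Cells without progenitor markers and with no Fabp4 UMI, 3335 and 9454, had 857 and 887 CPM. The cells left out for a mural UMI, 262 and 366, resembled members, with Fabp4 at 1322 and 1146 CPM, Lpl at 2506 and 2657 and Adam12 at 912 and 1486. Those left out for Pi16 and Dpp4, 161 in each library, were marked as doublets in 63.4% and 60.9% of cases, with a median of 21494 and 22095 UMIs.

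Dividing cells were rare among the members. After thinning, 5 of 1006 pubertal (0.497%) and 8 of 1407 adult members (0.569%) held at least 3 of 12 cell cycle genes, against 0.120% and 0.193% of the other Pdgfra+ cells. The ratios were 4.15 (1.22 to 11.3) and 2.95 (1.18 to 6.43). Against the cells without progenitors the ratio was 1.55 at puberty, with an interval of 0.437 to 4.56 that spans 1, and 3.0 in the adult (1.16 to 7.01). Mki67 had 106 UMIs in 15 pubertal and 343 in 27 adult members.

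Between the libraries, fewer genes were past 2-fold in members than in the other Pdgfra+ cells, whose share of progenitors also differed. Of 8453 genes 177 were at least 2-fold higher in adult than in pubertal members (2.09%) and 137 lower (1.62%), while of 8650 genes in the other cells 401 were higher (4.64%) and 158 lower (1.83%). Under TMM scaling the counts were 149 and 163 in members and 315 and 236 in the others, so that the split between higher and lower depends on the scaling. The median log2 ratio of all genes was 0.10 in members and 0.14 in the others, and 0.01 and -0.01 under TMM. Among the label markers, Lpl was at 1.01 times its pubertal level (0.997 to 1.02), Pparg at 1.08, Fgf10 at 1.30 and Adam12 at 1.48, and Fabp4, which the rule used, at 0.541.

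The genes highest in adult over pubertal members were mostly higher in all Pdgfra+ cells of the adult library. Lamc3, a laminin chain, was at 6.32 CPM in pubertal and 53.0 in adult members (8.39-fold), with a ratio of 16 in the other cells. Slit2, a guidance cue that limits duct branching, was at 127 and 830 CPM (6.52-fold, others 6.82), and Map2 at 15.8 and 98.7 (6.23-fold, others 9.43). The heat shock gene Hspa1b, which responds to cell handling, was at 43.4 and 196 CPM (4.51-fold, others 8.37). Negr1, an adhesion molecule, was at 12.7 and 56.9 CPM (4.47-fold, others 2.63), and Pla1a, a phospholipase, at 96.0 and 372 (3.87-fold, others 2.35). Of the 10 leading genes these 2 were the ones whose ratio in members was above that in the others.

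The genes lowest in adult over pubertal members were led by a hormone receptor and by chemokines. Prlr was at 81.3 CPM in pubertal and 21.2 in adult members (ratio 0.261, others 0.429). Cxcl2, which draws neutrophils, was at 62.7 and 16.6 CPM (0.265, others 0.208), and Ccl7 at 423 and 138 (0.326, others 0.350). Other genes on this list differed little in the other cells: Cxcl13, a chemokine for B cells, was at 91.9 and 27.6 CPM (0.300, others 1.40), Ccl8 at 77.7 and 27.7 (0.357, others 0.967), and Cpe, a carboxypeptidase of secreted peptides, at 52.7 and 18.0 (0.342, others 0.854). Chrdl1, a BMP antagonist, was at 96.8 and 28 CPM (0.289, others 0.567), and Ifit1, an interferon-stimulated gene, at 482 and 181 (0.376, others 0.512). Whether these ratios differ between members and the other cells could not be tested with 1 library per stage.

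**Figure D4:**
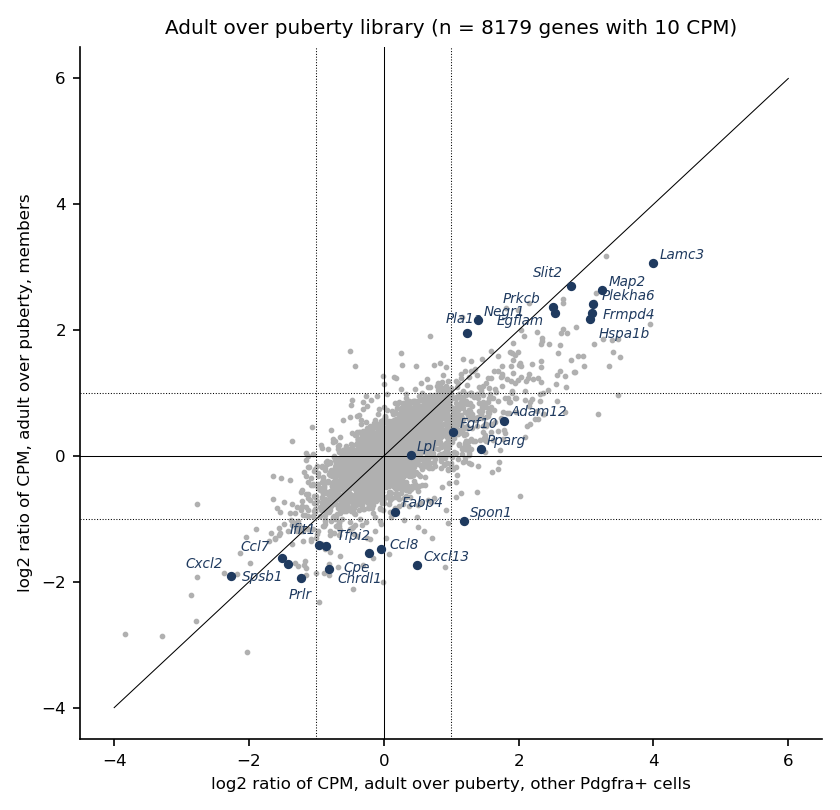
Log2 ratio of adult over puberty in members (y axis) and in other Pdgfra+ cells (x axis) for genes with at least 10 CPM in both comparisons, with the highest and lowest genes named. Lamc3 and Slit2 are high on both axes, while Cxcl13, Ccl8 and Cpe are low in members and near 0 in the others.

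As lists, chemokines and cytokines had 7 of 14 genes lower in adult than in pubertal members and none higher (median -1.05), against 5 of 15 lower and 2 higher in the other cells (median -0.57). Of 14 interferon gamma response genes 5 were lower in adult members (median -0.67), with a median of -0.36 in the others. Basement membrane genes were level in members, with 1 of 15 higher (median 0.28), while 6 of 15 were higher in the other cells (median 0.62). Interstitial collagens and elastic fibre genes had medians of -0.10 in members and -0.65 in the others.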

How the data were processed

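Stromal cells of 2 stages were profiled by droplet-based scRNA-seq, with 1 library per stage. For each library the authors deposited filtered raw counts of UMIs for 33696 genes, not normalized, made with Cell Ranger 8.0.1 on mm10 per the submitters' processing notes. The labels name the 10x Chromium GEM-X 3' v4 kit and 4 weeks of age at puberty, and were followed where the study's methods differ in kit, software version and pubertal age.

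Counts were summed over the members and over the other Pdgfra+ cells of each library and scaled to CPM in Python 3.11.15 with NumPy 2.4.6 and SciPy 1.17.1. Genes were compared at a minimum of 10 CPM in 1 of the sums, and a fold of 2 was used for counting. Ratios have exact conditional binomial intervals, levels exact Poisson intervals and shares exact Clopper-Pearson intervals, all for counting error only. A share of 0 was given the limit of 3 counts. For shares of cells with a UMI, cells were thinned to 3000 UMIs and shallower cells left out. Doublets were scored with Scrublet in scanpy 1.11.5 at 0.4% per 1000 barcodes and removed only as an alternative, since the rule has no such step. TMM factors came from edgeR 4.0.16, with no test. Figures were drawn with matplotlib 3.10.9. The code was tested on simulated data.

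Genes named were the 8 label markers, the rule genes, the 15 highest and 10 lowest ratios of members over other Pdgfra+ cells that held in both libraries at 50 CPM, the 10 highest and 10 lowest adult over puberty, and up to 4 leading genes per list. A few others were named after their values were seen: Angptl4, Col15a1, Insr, Rspo3 and Zfp423. Members and 37 gene lists were chosen with earlier results of these data known, and 4 lists were added after values were seen. Nrg1 was left out, since its symbol matched 2 identifiers. Promoters came from a RefSeq table of GRCm38.p6.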

Additional observations from a re-analysis of the deposited data

Results flagged for a closer look

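Mme, which encodes the surface peptidase neprilysin (CD10), was the 1 gene of those measured in both libraries that was at least 2-fold apart in opposite directions. It was at 92.5 CPM in members and 34.5 in other Pdgfra+ cells at puberty, a log2 ratio of 1.42, and at 182 against 384 in the adult, a log2 ratio of -1.08. Against the cells without progenitors its ratio was below 1 in both libraries, at 0.808 and 0.286. Spon1, which encodes the matrix protein F-spondin, was at 95.8 CPM in pubertal and 46.6 in adult members, a log2 ratio of -1.04, and at 108 and 246 in the other cells, a log2 ratio of 1.19. Neither difference was tested, since each stage had 1 library.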

How the results depend on the processing

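The member share depended on the rule. At puberty it was 6.61% with 1 Fabp4 UMI required, 4.73% with 3, 3.37% with 2 of the 3 second genes, 5.69% without doublets and the cells with most genes, 3.36% after thinning and 6.2% with Pi16 Dpp4 cells kept. In the adult the values were 8.71%, 5.56% and 2.96%, then 2.39% after thinning and 7.48% with Pi16 Dpp4 cells kept. With 2 denominators chosen after seeing the data, the shares were 5.72% and 7.14% without cells holding a mural UMI, and 17.9% and 10.5% without Pi16 Dpp4 cells. The ratio of adult over puberty was below 1 in 3 settings, at 0.876 with 2 second genes, 0.712 after thinning and 0.586 without Pi16 Dpp4 cells. Counts of genes past 2-fold moved with the CPM minimum, which changes how many genes are compared. At 50 CPM 173 genes were higher and 265 lower in pubertal members and 55 and 190 in adult ones. With no minimum 1040 were higher and 768 lower at puberty, and 580 higher and 775 lower in the adult. At puberty the order of higher and lower counts thus depended on the minimum. Adult over pubertal members gave 56 and 51 genes at 50 CPM, 470 and 392 with no minimum, and 268 higher after thinning, a setting chosen after seeing the data. Against cells without progenitors 88 and 85 genes were higher. Of 30 list medians at least 1 log2 unit from 0, 4 changed sign, all of Schwann or endothelial lists with few tested genes: Schwann at puberty (0.69 with no minimum, -2.30 otherwise), endothelial at puberty (1.01 against cells without progenitors, -1.87 otherwise), endothelial adult over puberty in members (-1.80 without doublets, 1.17 otherwise) and in other cells (0.058 with no minimum, -1.10 otherwise). Of 116 list medians nearer to 0, 42 changed sign in at least 1 alternative, among them Hedgehog genes at puberty (0.20, and -0.45 against cells without progenitors) and brakes on adipogenesis at puberty (0.30 and -0.53), so these give no direction. The cause of these changes was not tested. TMM scaling, mean CPM per cell and a Fabp4 minimum of 3 left each count of genes in members over other cells within 1.5 times. No paired analysis was possible because the 2 stages share only 1 replicate number, and no replicate could be left out with 1 library per stage. A gene at 10 CPM rests on 131 UMIs of the pubertal and 208 of the adult members.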

Other observations

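Some gene groups not described above set the members apart little. Of 9 insulin and IGF response genes, 1 was at least 2-fold higher at puberty and none in the adult (median log2 ratios -0.04 and -0.16). The higher one was the glucose transporter Slc2a1, at 34.2 against 16.6 CPM, with 21.8 against 14 in the adult, while the insulin receptor Insr was at 42.3 against 43.5 and 63.3 against 69.6. Hedgehog pathway genes had 1 of 8 higher and 1 lower at puberty and none of 7 past 2-fold in the adult. The transcription factor Gli2 was at 48.2 against 19.5 CPM and 77.0 against 57.1. Against cells without progenitors 8 of 9 Hedgehog genes at puberty and all 9 in the adult were below a ratio of 1. Dissociation stress genes were level between members and other cells, with none of 8 past 2-fold at puberty and 1 lower in the adult.

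Of 13 matrix proteases and inhibitors 6 were higher and 3 lower at puberty, and 1 higher and 1 lower in the adult. Besides Adam12, the aggrecanase Adamts4 was at 93.7 against 31.3 CPM and 91.0 against 49.3, and the plasminogen activator Plau was lower, at 34.6 against 134 and 46.4 against 136. Markers of other fibroblast classes differed by class. Of 4 adipogenesis-regulatory markers 1 was at least 2-fold higher than in the other Pdgfra+ cells at puberty and 1 lower in the adult, and 3 were lower than in the cells without progenitors in both libraries (medians -2.09 and -1.58). The higher one was Gdf10, at 117 against 58.2 CPM at puberty, with 122 against 72.7 in the adult, and at 0.568 and 1.10 times the level of the cells without progenitors. Lobular-like markers had 2 of 3 lower than in the other Pdgfra+ cells at puberty and 3 of 4 in the adult, and Crabp1 fibroblast markers summed to 6.62 against 14.5 CPM at puberty and 29.5 against 149 in the adult.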
